A study of Mus musculus with 9 samples.

Results

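Kallikreins and protease inhibitors of mouse skin were followed across 3 groups of 3 RNA-seq libraries. The members were the genes whose symbol begins with Klk, Serpinb, Spink or Wfdc and a digit, and they were selected on their level, 1 FPKM or more in at least 3 of the 9 libraries (FPKM, fragments mapped to a gene, scaled by transcript length and by the mapped fragments of the library). Among 55382 genes, 96 carried such a name and 26 were kept: 7 of 37 kallikreins, 11 of 29 clade B serpins, 2 of 12 Kazal inhibitors and 6 of 18 WAP inhibitors. Because measured levels chose the members, their presence is a description and not a finding.

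The EXO group was the back skin of female C57BL/6 mice in which 100 µL of bleomycin at 1 mg/mL had been injected under the shaved skin for 28 days, followed by 15 µg of exosomes, small vesicles shed by bone marrow mesenchymal stem cells. The BLM group was the same bleomycin model of scleroderma without vesicles, and the series' design gives it PBS while its sample labels call the treatment none. The NORMAL group had PBS and no bleomycin. The series gives the treatment period as 7 days, and the sources name no engineered allele. Libraries are named EXO1 to EXO3, BLM1 to BLM3 and NORMAL1 to NORMAL3, and a title without a number is called 3. Whether libraries came from different mice is not stated in the labels or methods, so p-values measure the spread between these libraries, which may be technical.

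The outer skin is shed by cutting the junctions between dead surface cells. Kallikreins are secreted serine proteases that do much of this cutting, with Klk5 known to activate others such as Klk7 in a cascade. LEKTI, the product of Spink5, is their best known brake, and its loss in humans causes Netherton syndrome, with a skin that sheds too early. Clade B serpins are mostly intracellular inhibitors that trap a protease by letting it cut a bait loop, and the small WAP and Kazal proteins block proteases by a tight fit.

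The makeup of the libraries differed. The estimated depth ran from 12.6 to 24.9 M fragments (M, the mega prefix). Mitochondrially encoded transcripts took 18.7% to 34.4% of FPKM in EXO, 27.8% to 50.9% in BLM and 19.1% to 22.7% in NORMAL. Skeletal muscle markers took 1.69% to 11.7% in EXO, 1.38% to 2.48% in BLM and 2.65% to 16.6% in NORMAL. Markers of basal epidermis were above 0 in every library, with a mean log2(FPKM + 1) of 6.91, 7.33 and 8.02 in EXO1 to EXO3, 6.50, 4.89 and 6.57 in BLM1 to BLM3, with 6.39, 4.88 and 7.49 in NORMAL1 to NORMAL3. Liver markers summed to 472, 769 and 3089 FPKM in EXO2, BLM2 and NORMAL2, and to 2.63 to 5.67 FPKM in the other 6 libraries, so the libraries numbered 2 stood apart. In these bulk samples fewer cells of a type and less RNA per cell cannot be told apart.

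The 26 members took 0.0863% to 0.174% of FPKM in EXO, 0.0281% to 0.0988% in BLM and 0.0701% to 0.124% in NORMAL. In the main fit no member passed an adjusted p of 0.05 (limma on log2(FPKM + 1), Benjamini-Hochberg over 14254 genes) in any of the 3 comparisons, and 11 members in EXO against BLM, 4 in BLM against NORMAL and 6 in EXO against NORMAL had an unadjusted p below 0.05. Over all genes tested the adjusted threshold was passed by 0.014% in EXO against BLM, 0.014% in BLM against NORMAL and 0% in EXO against NORMAL, and the unadjusted one by 6.84%, 7.37% and 2.33%. With the library number as a block, 2 members passed in EXO against BLM, Klk13 and Wfdc3, and 1 in BLM against NORMAL, Klk13, where 0.0772% and 0.421% of all genes did. Klk13 reached 1 FPKM in the BLM libraries alone, so it had to differ and its passes are a description. No label states that libraries of one number belong together. In EXO against NORMAL 0 members passed with the block, 8 had an unadjusted p below 0.05, and 0.021% and 7.6% of all genes passed these limits. All 3 comparisons share libraries with one another and are not separate evidence.

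**Figure D1:**
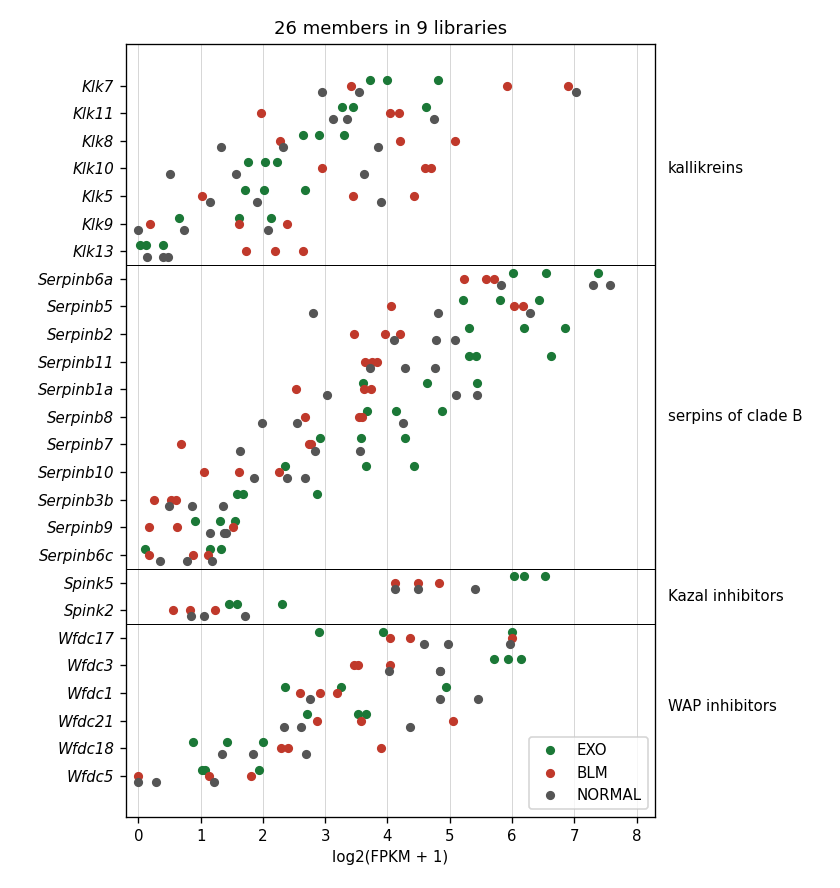
Level of the 26 members as log2(FPKM + 1), with 1 point for each of 9 libraries and members ordered within a family by their mean. Spink5, Serpinb2, Serpinb11 and Wfdc3 have their 3 EXO points to the right of all BLM and NORMAL points, and Klk13 has its 3 BLM points to the right of all others.

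The 7 kallikreins lie in one stretch of chromosome 7 from 43712567 to 43851181 (GRCm38, GENCODE M21 annotation, all on the plus strand and protein-coding). Their FPKM summed to 37.6, 33.3 and 72.3 in EXO1 to EXO3, 132.8, 26.7 and 221.05 in BLM1 to BLM3, with 27.9, 19.3 and 196.97 in NORMAL1 to NORMAL3. BLM1, BLM3 and NORMAL3 thus stood above the rest, while BLM2 lay below every EXO library. Klk7 made up 34.5% to 65.4% of that sum and was the largest part of it in every library except NORMAL2, where Klk11 was larger.

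Klk13 (ENSMUSG00000054046), a trypsin-like kallikrein of epithelia, had 0.02, 0.09 and 0.32 FPKM in EXO1 to EXO3, 3.57, 2.32 and 5.26 FPKM in BLM1 to BLM3 and 0.10, 0.31 and 0.39 FPKM in NORMAL1 to NORMAL3. It was above 1 FPKM in the 3 BLM libraries alone, so it passed the filter only through the group where it was high and had to differ. On the log2(FPKM + 1) scale, which understates changes of low genes, it differed by -2.01 in EXO against BLM (SE 0.32, limma, adjusted p = 0.114, and 0.0431 with the block) and by 1.86 in BLM against NORMAL (SE 0.32, adjusted p = 0.115, and 0.0322 with the block). Over the 14 alternatives that could test it, its adjusted p ran from 0.00699 to 0.447 in EXO against BLM and from 0.0116 to 0.624 in BLM against NORMAL, past the threshold in 5 each time. In BLM against NORMAL these 5 included the fit without NORMAL3 (adjusted p = 0.0362), and without any BLM library Klk13 was no longer tested.

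Klk10 (ENSMUSG00000030693), a kallikrein of epithelia, had 2.38, 3.07 and 3.70 FPKM in EXO1 to EXO3, 24.9, 6.74 and 23.4 FPKM in BLM1 to BLM3 and 1.97, 0.42 and 11.4 FPKM in NORMAL1 to NORMAL3. Each EXO library lay below each BLM library, and NORMAL3 fell within the BLM range. The difference was -2.08 in EXO against BLM (SE 0.73, limma, adjusted p = 0.577) and 2.18 in BLM against NORMAL (SE 0.73, adjusted p = 0.551). Without NORMAL3 the difference in BLM against NORMAL was 3.05 with an adjusted p of 0.0387 (limma), where it ran from 0.0147 to 1 over 20 alternatives.

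Klk7 (ENSMUSG00000030713), the chymotrypsin-like enzyme that cuts the glue of surface cells, had 15.0, 12.2 and 27.1 FPKM in EXO1 to EXO3, 59.5, 9.66 and 117.8 FPKM in BLM1 to BLM3 and 10.7, 6.68 and 128.8 FPKM in NORMAL1 to NORMAL3. Klk8 (ENSMUSG00000064023), also called neuropsin, had 5.24, 6.45 and 8.86 FPKM in EXO, 17.4, 3.86 and 32.8 FPKM in BLM and 4.02, 1.52 and 13.4 FPKM in NORMAL. Klk5 (ENSMUSG00000074155), the trypsin-like activator of the cascade, had 3.04, 2.26 and 5.39 FPKM in EXO, 9.90, 1.03 and 20.5 FPKM in BLM and 2.73, 1.22 and 13.9 FPKM in NORMAL. In all 3 genes BLM1, BLM3 and NORMAL3 were high and BLM2 was below each EXO library, so the groups overlapped, and the adjusted p in EXO against BLM was 0.851, 0.837 and 0.874 (limma). Klk11 ran from 8.62 to 23.5 FPKM in EXO, 2.91 to 17.1 in BLM and 7.73 to 25.9 in NORMAL, and Klk9 from 0.57 to 3.35 in EXO, 0.14 to 4.21 in BLM and 0 to 3.23 in NORMAL, both with wide overlap. Klk8, Klk9, Klk10, Klk11 and Klk13 overlap 2310002F09Rik on the opposite strand, and whether strand was used in counting is not given in the sources used here.

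The median log2 difference of the 7 kallikreins was -0.91 in EXO against BLM, where it was 0.22 over all genes, and 0.91 in BLM against NORMAL, where it was -0.03 over all genes. In EXO against BLM 5 were lower and 2 higher, Klk11 and Klk9, and in BLM against NORMAL 6 were higher and only Klk11 lower. In EXO against NORMAL 4 were higher and 3 lower with a median of 0.03. Between groups, genes marking the hair matrix and inner root sheath moved in the direction of the kallikrein median, 14 of 14 higher in BLM than in NORMAL and 13 of 14 lower in EXO than in BLM. Their mean log2 level was 1.55, 1.04 and 1.23 in EXO1 to EXO3, 5.21, 3.22 and 5.60 in BLM1 to BLM3, with 0.77, 0.67 and 3.96 in NORMAL1 to NORMAL3. NORMAL3 again lay among the BLM libraries, but BLM2 lay above every EXO library, unlike its kallikrein sum. Companion layer markers, of a hair follicle layer, summed to 555, 330.3 and 818 FPKM in EXO1 to EXO3, 804, 252 and 1529 FPKM in BLM1 to BLM3, and 343, 133 and 2129 FPKM in NORMAL1 to NORMAL3. Markers of activated or wound epidermis summed to 498, 289 and 670.5 FPKM in EXO, 768, 244 and 1474 FPKM in BLM and 272, 111 and 2228 FPKM in NORMAL. Like the kallikrein sum, both were highest in BLM3 and NORMAL3 and lower in BLM2 than in any EXO library. A low BLM2 was not particular to these lists. Markers of suprabasal epidermis summed to 174 FPKM in BLM2 and 997 to 1989 FPKM in EXO. Those of basal epidermis summed to 1056 FPKM in BLM2 and 6642 to 11373 FPKM in EXO. Of the 14 hair matrix and inner root sheath markers Krt26, Krt27 and Shh were at 0 in EXO2 and Krt27, Krt73, Lef1 and Shh in NORMAL2. Cell cycle markers were likewise higher in BLM than in NORMAL, 12 of 12, and lower in EXO than in BLM, 12 of 12. The part of these lists in the kallikrein values was not tested.

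**Figure D2:**
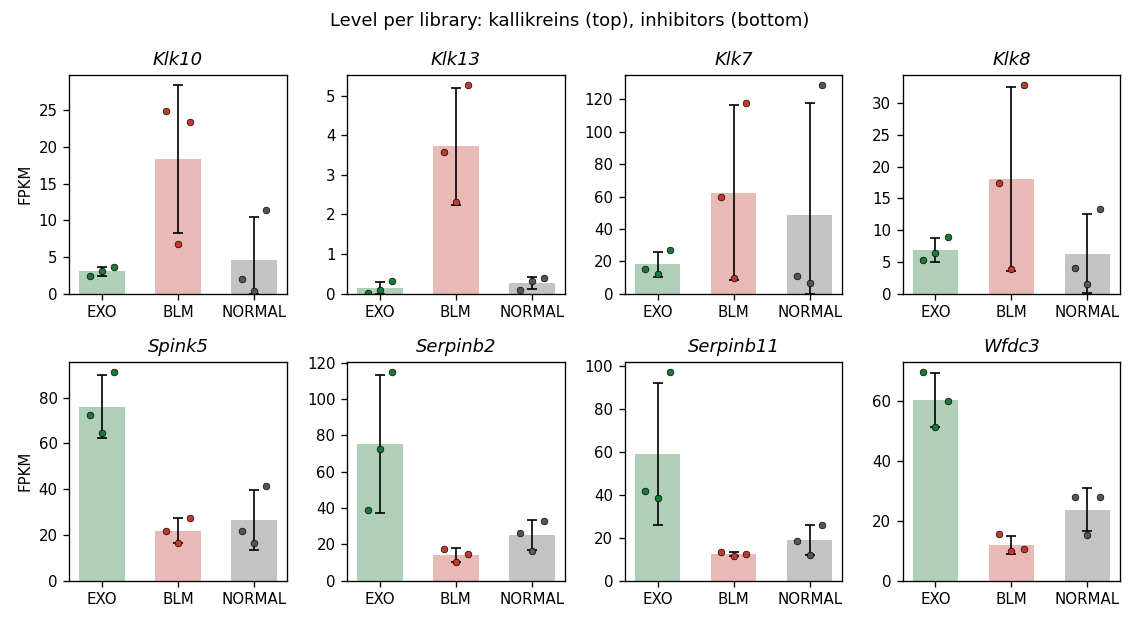
FPKM of 4 kallikreins and 4 inhibitors, with bars for the mean of 3 libraries, error bars for the SD (cut off at 0 below) and points for libraries 1 to 3 from left to right. The kallikrein panels have their highest bar in BLM, with the mean of Klk10 at 3.05 in EXO, 18.4 in BLM and 4.59 in NORMAL, while all 4 inhibitors have it in EXO. The panels are a selection. Among members not shown, Klk11 had its lowest mean in BLM, and Wfdc18 and Wfdc21 had their highest there. Serpinb6a and Serpinb1a had their highest mean in NORMAL.

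Spink5 (ENSMUSG00000055561, chromosome 18), which encodes LEKTI, had 72.6, 64.5 and 91.3 FPKM in EXO1 to EXO3, 21.6, 16.4 and 27.4 FPKM in BLM1 to BLM3 and 21.5, 16.4 and 41.2 FPKM in NORMAL1 to NORMAL3. Every EXO library was above every other library, whereas BLM and NORMAL overlapped. The difference was 1.77 in EXO against BLM (SE 0.42, limma, adjusted p = 0.296, and 0.0659 with the block), 1.58 in EXO against NORMAL (SE 0.42, adjusted p = 0.997) and -0.19 in BLM against NORMAL (SE 0.42, adjusted p = 0.98). Spink2, the other Kazal inhibitor kept, ran from 1.73 to 3.93 FPKM in EXO, 0.47 to 1.35 in BLM and 0.80 to 2.28 in NORMAL. Markers of suprabasal epidermis, where Spink5 is made, had mean log2 levels of 4.94, 4.91 and 5.55 in EXO1 to EXO3, 5.02, 3.02 and 5.67 in BLM1 to BLM3, with 4.41, 3.17 and 5.36 in NORMAL1 to NORMAL3, and 11 of 14 were higher in EXO than in BLM. These levels overlapped between EXO and BLM, where 68.8% of all genes were higher in EXO. The basal epidermis levels given above and those of bulge markers, of the hair follicle stem cell region, did not overlap, with bulge levels of 4.60 to 5.25 in EXO and 3.04 to 4.21 in BLM. The part of these lists in the Spink5 values was not tested.

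A ratio of 2 genes within a library does not depend on how that library was scaled. Klk7 over Spink5 was 0.206, 0.189 and 0.297 in EXO1 to EXO3, 2.76, 0.590 and 4.29 in BLM1 to BLM3, with 0.497, 0.407 and 3.12 in NORMAL1 to NORMAL3. Klk10 over Spink5 was 0.0328, 0.0476 and 0.0405 in EXO, 1.15, 0.411 and 0.853 in BLM and 0.0915, 0.0256 and 0.276 in NORMAL. The ratios of Klk5, Klk7, Klk8 and Klk10 to Spink5 were each lower in all 3 EXO libraries than in any BLM library, with geometric means 0.159, 0.118, 0.146 and 0.0539 times those in BLM. Each gave p = 0.1 in a two-sided exact permutation test, the smallest that 3 against 3 unpaired libraries allow, and 0.1875 after adjustment over 15 comparisons. Klk11 over Spink5 overlapped between EXO and BLM (exact permutation test, p = 0.2). In EXO against NORMAL the ratios of Klk5, Klk7 and Klk11 were lower without overlap, at 0.301, 0.264 and 0.333 times (exact permutation test, p = 0.1, adjusted 0.1875), and those of Klk8 and Klk10 overlapped (exact permutation test, p = 0.3 and 0.4). These gene pairs were chosen after the values were seen, and the ratios of Klk9 and Klk13 to Spink5 were not computed. In BLM against NORMAL the ratio was higher without overlap only for Klk10 (8.56 times, exact permutation test, p = 0.1, adjusted 0.1875), and that of Klk7 differed by 2.23 times with overlap (p = 0.3, exact permutation test).

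**Figure D3:**
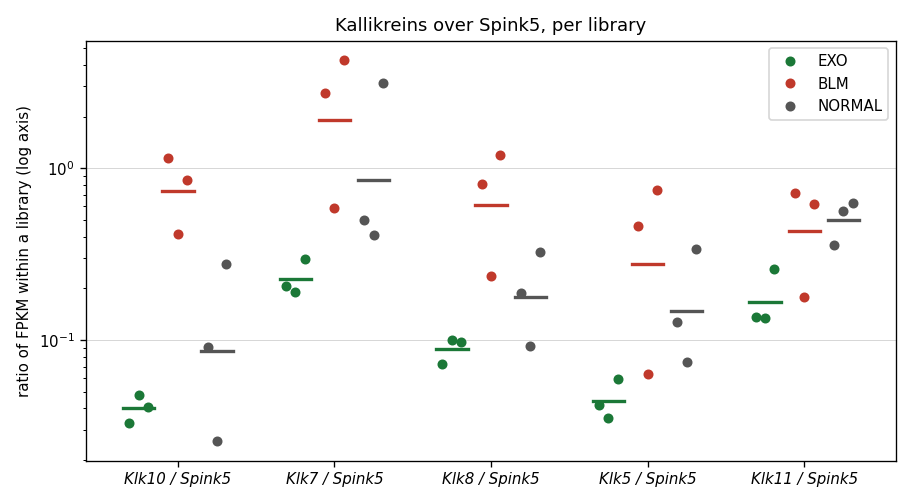
Ratio of 5 kallikreins to Spink5 within each library on a log axis, with points for libraries 1 to 3 from left to right and lines for the geometric mean of each group. For Klk10, Klk7, Klk8 and Klk5 the 3 EXO points lie below the 3 BLM points, while for Klk11 they overlap.

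Summed over families, kallikreins over inhibitors came to 0.0687, 0.0650 and 0.112 in EXO1 to EXO3, 0.512, 0.126 and 0.817 in BLM1 to BLM3, with 0.0676, 0.0479 and 0.544 in NORMAL1 to NORMAL3. Each EXO library lay below each BLM library, and BLM overlapped NORMAL. Serpinb6a alone made up 9.88% to 46.7% of the inhibitor sum.

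Of the 11 clade B serpins kept, 7 lie on chromosome 1 between 106861173 and 107610484 and the other 4 on chromosome 13 (GRCm38). Serpinb2 (ENSMUSG00000062345, plasminogen activator inhibitor 2) had 38.6, 72.2 and 114.8 FPKM in EXO1 to EXO3, 17.5, 9.98 and 14.6 FPKM in BLM1 to BLM3 and 26.4, 16.2 and 32.9 FPKM in NORMAL1 to NORMAL3. It was higher in each EXO library than in any other, by 2.24 against BLM (SE 0.47, limma, adjusted p = 0.258, and 0.0659 with the block) and 1.46 against NORMAL (SE 0.47, adjusted p = 0.997).

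Serpinb11 (ENSMUSG00000026327), a serpin of little known function, had 41.7, 38.6 and 97.3 FPKM in EXO1 to EXO3, 13.3, 11.4 and 12.5 FPKM in BLM1 to BLM3 and 18.5, 12.1 and 26.02 FPKM in NORMAL1 to NORMAL3. The EXO libraries again stood above all others, by 2.04 against BLM (SE 0.44, limma, adjusted p = 0.288, and 0.0659 with the block). Serpinb10 (ENSMUSG00000092572), annotated as a polymorphic pseudogene, had 4.11, 11.6 and 20.5 FPKM in EXO, 3.79, 1.07 and 2.06 FPKM in BLM and 5.41, 2.61 and 4.24 FPKM in NORMAL, so EXO1 was close to BLM1 and below NORMAL1. Serpinb10 and Serpinb2 overlap on the same strand, and fragments of one may have been counted with the other.

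Serpinb7 (ENSMUSG00000067001), whose human counterpart is lost in a palmoplantar keratosis, had 6.51, 10.9 and 18.4 FPKM in EXO1 to EXO3, 5.68, 0.60 and 5.86 FPKM in BLM1 to BLM3 and 6.10, 2.11 and 10.8 FPKM in NORMAL1 to NORMAL3. EXO and BLM did not overlap, and EXO and NORMAL did (limma, adjusted p = 0.712 in EXO against BLM). Serpinb3b (ENSMUSG00000073602), of the squamous cell carcinoma antigen family, had 2.19, 1.98 and 6.30 FPKM in EXO, 0.44, 0.19 and 0.52 FPKM in BLM and 1.56, 0.81 and 0.41 FPKM in NORMAL. It reached 1 FPKM in all EXO libraries and in NORMAL1 alone and in 0 BLM libraries, so it passed the filter through the group where it was high and its difference from BLM is a description. Its transcript is 93.7% identical to that of Serpinb3c, and fragments may have been divided between both, which leaves its level uncertain. Serpinb5, also called maspin, which is known from epithelial cells and does not inhibit proteases in the usual way, had 35.9, 54.7 and 85.3 FPKM in EXO, 64.2, 15.6 and 71.1 FPKM in BLM and 27.1, 6.0 and 77.4 FPKM in NORMAL, with wide overlap. Serpinb8 was at 11.7 to 28.4 FPKM in EXO, 5.36 to 11.02 in BLM and 2.95 to 17.95 in NORMAL, and Serpinb6c and Serpinb9 stayed at or below 1.93 FPKM in all libraries.

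Serpinb6a (ENSMUSG00000060147), the member of highest mean level and an inhibitor found in many tissues, had 165.2, 92.4 and 63.8 FPKM in EXO1 to EXO3, 51.6, 46.9 and 36.5 FPKM in BLM1 to BLM3 and 156.1, 188.6 and 55.9 FPKM in NORMAL1 to NORMAL3. All 3 BLM values were under the lowest NORMAL value, with a difference of -1.39 (SE 0.52, limma, adjusted p = 0.643), and EXO overlapped NORMAL. Serpinb1a, which blocks neutrophil proteases, had 42.1, 11.3 and 23.8 FPKM in EXO, 12.3, 11.4 and 4.80 FPKM in BLM and 33.5, 42.2 and 7.18 FPKM in NORMAL. Both genes were highest in EXO1, NORMAL1 and NORMAL2, the libraries with 11.7%, 16.6% and 10.3% of FPKM from skeletal muscle markers, against 1.38% to 4.18% in the rest. The part of muscle in these values was not tested. Part of the Serpinb1a transcript (72.6%) is 87.6% identical to Serpinb1c, and fragments may have been divided between both.

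All 11 serpins were higher in EXO than in BLM by the sign of the fit, with a median of 1.26 (0.22 over all genes), 7 of them without overlap (11.4% of all genes). After rescaling to basal epidermis markers, a setting that moved the median of all genes to -0.89, 5 were higher and 6 lower, with a median of -0.16. In BLM against NORMAL 9 were lower and 2 higher, with a median of -0.54, and in EXO against NORMAL 9 were higher with a median of 1.14 (0.17 over all genes). These counts are over genes that passed the filter and are a description only.

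RefSeq promoters (GRCm38.p6, from 250 bases before to 50 after a start) were found for 21 of the 26 members. The letters TGANTCA, read on both strands with N for any base, occurred in 6 of the 7 chromosome 1 serpins, Serpinb2, Serpinb5, Serpinb7, Serpinb8, Serpinb10 and Serpinb11, but not in Serpinb3b. They occurred in 0 of the 7 kallikreins and in no other member, and in 7.81% of all 32851 promoters. Here and below, members were counted by gene over all of their promoters. The shares are over single promoters, so they are not the same measure. The narrower TGACTCA, on either strand the core that AP-1 factors such as Fos and Jun bind, was in 2 members, Serpinb7 and Serpinb8, and in 5.2% of all promoters. The promoters of 3 of these serpins, which did not overlap between EXO and BLM, are shown with the TGANTCA match in capitals, each with A or T in the middle and so not the AP-1 core, beside those of 2 kallikreins that went the other way and have none. The promoters shown are a selection, and whether match and direction go together was not tested. Serpinb5 has a match and overlapped between EXO and BLM, while Serpinb3b, Serpinb6a, Spink2 and Wfdc3 were higher without overlap and have none. Klk9 and Klk11 have none and overlapped, and Klk13 passed the filter through BLM alone. A match describes letters and is not a binding site.

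Serpinb2, chr1:107511173-107511472, plus strand: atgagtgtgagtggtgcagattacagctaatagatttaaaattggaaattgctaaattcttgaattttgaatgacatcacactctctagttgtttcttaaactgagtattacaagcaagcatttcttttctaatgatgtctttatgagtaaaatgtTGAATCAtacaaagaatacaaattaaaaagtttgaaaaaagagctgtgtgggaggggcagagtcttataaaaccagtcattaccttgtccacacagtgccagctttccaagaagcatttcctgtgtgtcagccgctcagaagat
Serpinb11, chr1:107362064-107362363, plus strand: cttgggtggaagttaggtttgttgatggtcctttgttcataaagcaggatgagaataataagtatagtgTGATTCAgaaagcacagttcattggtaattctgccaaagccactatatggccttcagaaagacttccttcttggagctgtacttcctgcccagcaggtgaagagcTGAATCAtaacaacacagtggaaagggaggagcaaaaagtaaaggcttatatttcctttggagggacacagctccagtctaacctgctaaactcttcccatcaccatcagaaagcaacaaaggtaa
Serpinb10, chr1:107528753-107529052, plus strand: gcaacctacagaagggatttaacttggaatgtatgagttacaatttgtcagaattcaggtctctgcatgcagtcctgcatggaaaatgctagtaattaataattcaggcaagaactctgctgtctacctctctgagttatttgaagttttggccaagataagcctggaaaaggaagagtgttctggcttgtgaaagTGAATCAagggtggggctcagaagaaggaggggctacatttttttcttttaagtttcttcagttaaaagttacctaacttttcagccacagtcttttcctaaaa
Klk10, chr7:43780804-43781103, plus strand: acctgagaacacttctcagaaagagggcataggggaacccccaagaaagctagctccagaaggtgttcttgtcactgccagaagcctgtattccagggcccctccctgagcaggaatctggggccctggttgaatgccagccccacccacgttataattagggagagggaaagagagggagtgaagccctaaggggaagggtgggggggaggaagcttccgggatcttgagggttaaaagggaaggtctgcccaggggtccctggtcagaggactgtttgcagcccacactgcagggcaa
Klk13, chr7:43712317-43712616, plus strand: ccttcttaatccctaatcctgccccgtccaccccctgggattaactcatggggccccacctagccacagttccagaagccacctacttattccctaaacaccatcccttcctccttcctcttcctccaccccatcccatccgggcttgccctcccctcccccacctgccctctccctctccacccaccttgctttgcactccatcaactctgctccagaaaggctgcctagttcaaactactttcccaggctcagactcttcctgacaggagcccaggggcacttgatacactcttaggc

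The match begins 94 bases before the start in Serpinb2, 54 in Serpinb10 and 181 and 76 in Serpinb11. Of the 2 starts of Serpinb2 the first is shown. The letters TATAAA, read on both strands and a box close to the start of many genes, were in 4 of 10 serpins and 0 of 7 kallikreins with a promoter, and in 13.6% of all promoters. The letters CCACCC, also read on both strands, were in 6 of 7 kallikreins and 7 of 10 serpins, and in 31.5% of all promoters. AGATAA was in 2 of 7 kallikreins and 3 of 10 serpins, and in 11.2% of all promoters. CCAAT was in 2 of 7 kallikreins and 4 of 10 serpins, and in 37.4% of all promoters. No other letters were searched.

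Wfdc3 (ENSMUSG00000076434, chromosome 2), a WAP protein with little known of its targets, had 69.7, 51.4 and 59.9 FPKM in EXO1 to EXO3, 15.4, 10.03 and 10.5 FPKM in BLM1 to BLM3 and 27.8, 15.4 and 27.8 FPKM in NORMAL1 to NORMAL3. The EXO libraries were clear of all others. The difference was 2.25 in EXO against BLM (SE 0.38, limma, adjusted p = 0.114, and 0.0401 with the block), and over 20 alternatives its adjusted p ran from 0.0349 to 0.767, past the threshold in 2. In BLM against NORMAL it was -0.90 (SE 0.38, adjusted p = 0.662), with overlap.

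Wfdc18 (ENSMUSG00000000983), a WAP protein known as Expi in mammary gland, went the other way, with 3.00, 1.67 and 0.83 FPKM in EXO1 to EXO3, 4.27, 3.88 and 13.9 FPKM in BLM1 to BLM3 and 2.56, 1.54 and 5.49 FPKM in NORMAL1 to NORMAL3. It was lower in each EXO than in each BLM library, by -1.43 (SE 0.54, limma, adjusted p = 0.632). Wfdc17, made by activated macrophages, was at 6.47 to 63.0 FPKM in EXO, 15.4 to 62.7 in BLM and 23.05 to 61.8 in NORMAL, highest in the library numbered 2 of each group, where macrophage markers were also highest in their group (mean log2 levels 4.65, 4.47 and 4.53 in EXO2, BLM2 and NORMAL2). Wfdc1 had 29.6, 4.14 and 8.5 FPKM in EXO1 to EXO3, 8.14, 6.54 and 5.01 FPKM in BLM1 to BLM3 and 42.8, 27.7 and 5.74 FPKM in NORMAL1 to NORMAL3, a difference of -1.45 in BLM against NORMAL (SE 0.75, limma, adjusted p = 0.721). It was highest in EXO1, NORMAL1 and NORMAL2, the libraries with the most skeletal muscle markers, whose part in its values was not tested. Wfdc21 ran from 5.56 to 11.5 FPKM in EXO, 6.29 to 32.1 in BLM and 4.03 to 19.7 in NORMAL, and Wfdc5 stayed at or below 2.82 FPKM.

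Across the 19 inhibitors, 16 were higher and 3 lower in EXO than in BLM, with a median of 0.96 where all genes had 0.22. By the limits the study used, an absolute log2 difference over 1 and an unadjusted p under 0.05, 7 members were higher (3.03% of all genes) and 3 lower (2.27% of all genes). The 7 were Wfdc3, Serpinb2, Serpinb11, Serpinb10, Spink5, Serpinb3b and Serpinb7, and the 3 were Klk10, Klk13 and Wfdc18. Klk13 and Serpinb3b, which passed the filter through the group where they were high, are among them. Groups did not overlap for 10 members that were higher (11.4% of all genes) and 3 that were lower (2.66% of all genes). In BLM against NORMAL, 2 members were higher at these thresholds, Klk10 and Klk13 (2.88% of all genes), and 1 lower, Serpinb6a (3.02% of all genes), and groups did not overlap for Klk13, higher (2.87%), and Serpinb6a, lower (7.52%). In EXO against NORMAL, 6 were higher (1.32% of all genes) and 0 lower (0.393%), with 5 higher without overlap (4.58%), namely Spink5, Serpinb11, Serpinb2, Wfdc3 and Serpinb3b, and 0 lower (0.989%).

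**Figure D4:**
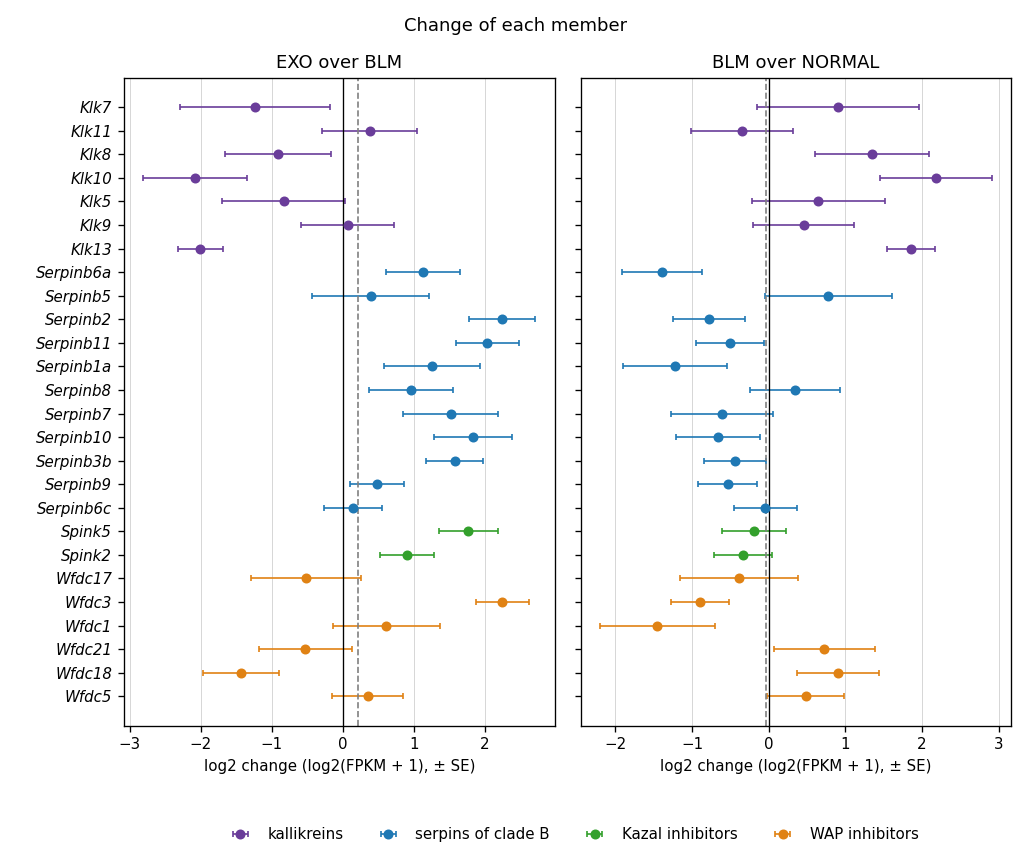
Fitted log2 difference of each member with its SE, in EXO over BLM on the left and BLM over NORMAL on the right, with a dashed line at the median of all genes (0.22 and -0.03). On the left all 11 serpins lie right of 0 and 5 of 7 kallikreins left of it, and on the right 6 of 7 kallikreins lie right of 0.

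The sign of a difference depended on the scale. Basal epidermis markers were higher in EXO than in BLM in 8 of 8 cases, with a median of 1.54. When each library was rescaled to the same level of these markers, a setting chosen after the data were seen, the median of all genes in EXO against BLM moved to -0.89. Of all genes 4.74% were then higher, against 68.8% as deposited, and of the 26 members 7 were higher, against 18 as deposited. Relative to the median of all genes, 16 members lay above and 10 below on each scale, though not the same 16. On each scale 1 of 7 kallikreins lay above it, Klk11 as deposited and Klk9 after rescaling, and 10 of 11 serpins did, all but Serpinb6c as deposited and all but Serpinb5 after rescaling. The difference of Spink5 was then 0.30, of Serpinb2 0.78 and of Wfdc3 0.80, and Klk10, Klk13, Klk8 and Wfdc18 passed the threshold as lower, at -3.26, -2.59, -2.19 and -2.36 (limma, adjusted p = 0.00658, 0.00699, 0.0234 and 0.0398), where 3.97% of all genes passed it. Relative to the moved median of all genes these were -2.37, -1.70, -1.30 and -1.48, and Spink5 was at 1.19. Among them Klk13 had passed the filter only through the BLM group, where it was high. Over the alternatives, the adjusted p of Klk10 ran from 0.00658 to 0.996, of Klk8 from 0.0234 to 0.998 and of Wfdc18 from 0.0398 to 0.998.

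**Figure D5:**
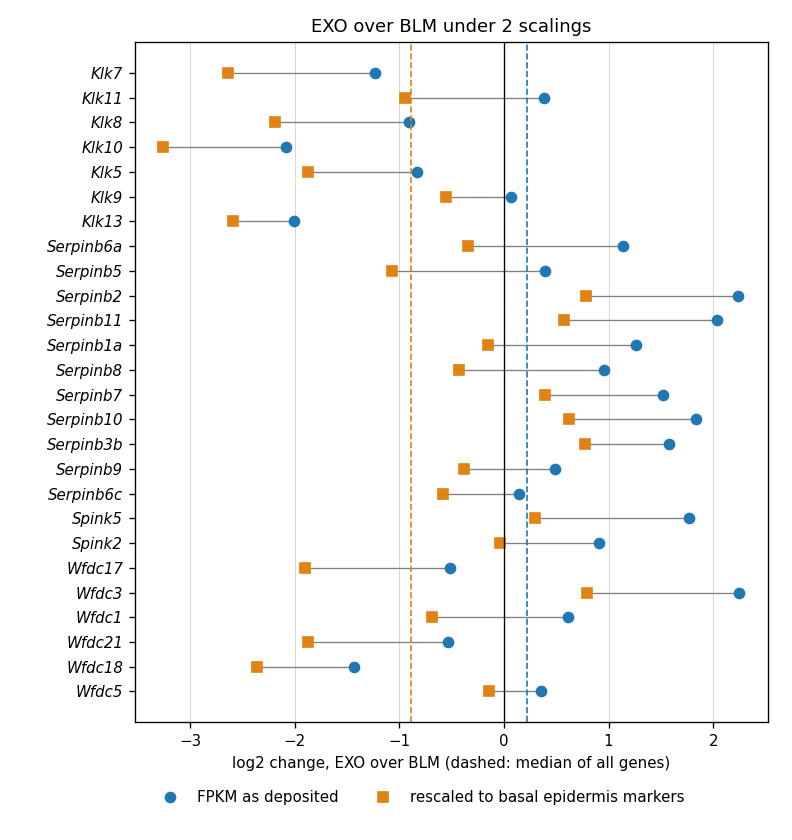
Log2 difference of each member in EXO over BLM, with circles for FPKM as deposited, squares after rescaling to basal epidermis markers and dashed lines for the median of all genes under each (0.22 and -0.89). Rescaling moved all 26 members and the median of all genes to the left, and 6 of the 7 kallikreins lie left of that median on each scale.

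Other genes of the same pathway were read from lists. Over all genes 68.8% were higher in EXO than in BLM, with a median of 0.22. Of 11 measured serine proteases of the cell surface 6 were higher and 5 lower in EXO than in BLM (median 0.07), and 0 passed the adjusted threshold (limma), with 1 at an unadjusted p below 0.05. St14, which encodes matriptase, an activator of kallikreins, had 7.44, 6.73 and 11.9 FPKM in EXO1 to EXO3, 32.5, 8.19 and 33.9 FPKM in BLM1 to BLM3 and 3.54, 2.03 and 21.1 FPKM in NORMAL1 to NORMAL3, and differed in EXO against BLM by -1.22 (SE 0.74, limma, adjusted p = 0.793). Prss27, a membrane-anchored protease, had 0.30, 0 and 0.43 FPKM in EXO, 3.20, 1.59 and 4.94 FPKM in BLM and 0.16, 0 and 1.39 FPKM in NORMAL, and differed in EXO against BLM by -1.71 (SE 0.42, limma, adjusted p = 0.306, and 0.0659 with the block). Prss27 was the 1 gene at an unadjusted p below 0.05. It reached 1 FPKM in all BLM libraries, in NORMAL3 and in no EXO library. Prss27 thus passed the filter through the group where it was high, and its difference from EXO is a description.

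Of 9 genes listed as other protease inhibitors 6 were higher and 3 lower in EXO than in BLM (median 0.26). Serpinh1, a collagen chaperone that is a serpin by name and not an inhibitor, was 1 of the 3 lower (-0.79). Cst3, the cysteine protease inhibitor cystatin C, had 713.8, 616.97 and 637.1 FPKM in EXO1 to EXO3 and 257.6, 198.5 and 233.2 FPKM in BLM1 to BLM3, with 397.4, 459.1 and 536.2 FPKM in NORMAL1 to NORMAL3, and EXO and BLM did not overlap (log2 difference 1.51, SE 0.35, limma, adjusted p = 0.296, and 0.102 with the block). Of 6 substrates and receptors of the cascade 5 were higher and 1 lower (median 0.45). Cdsn, corneodesmosin, which kallikreins cut to release surface cells, had 83.1, 44.3 and 70.5 FPKM in EXO and 17.2, 9.42 and 23.7 FPKM in BLM, with 28.8, 9.86 and 49.5 FPKM in NORMAL, and EXO and BLM did not overlap (log2 difference 1.96, SE 0.57, limma, adjusted p = 0.449, and 0.0659 with the block). Of 7 genes of the plasminogen activator system 6 were higher and 1 lower (median 0.55). Of 14 genes for cathepsins, caspases and legumain 10 were higher and 4 lower (median 0.39). Of 5 leukocyte and mast cell proteases 3 were higher and 2 lower (median 0.03). These counts stand beside 68.8% of all genes that were higher in EXO than in BLM, with a median of 0.22. Of the 52 genes in all 6 lists 0 passed the adjusted threshold in any comparison (limma), with or without the block, while 4 in EXO against BLM, 7 in BLM against NORMAL and 3 in EXO against NORMAL had an unadjusted p below 0.05 (6.84%, 7.37% and 2.33% of all genes). In BLM against NORMAL 13 of the 14 genes for cathepsins, caspases and legumain were lower, with a median of -0.23. Of all genes 47.3% were higher there, with a median of -0.03.

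The filter left out many family members. Of the 96 family genes 39 were at 0 in all libraries and 63 never reached 1 FPKM, among them Klk14, Serpinb3a, Serpinb12 and Wfdc12, and Wfdc2 reached it in 1 library. Just outside the filter were Klk6, Serpinb1c and Serpinb6e, which reached it in 2 libraries each. Klk6, a trypsin-like kallikrein, had 0.25, 0.13 and 0.13 FPKM in EXO1 to EXO3, 0.97, 0.15 and 4.08 FPKM in BLM1 to BLM3 and 0.10, 0 and 10.3 FPKM in NORMAL1 to NORMAL3, high in BLM3 and NORMAL3 as Klk7 was. Just inside were Klk13 in 3 libraries and Serpinb3b and Serpinb6c in 4 each. Serpinb1c reached at most 2.16 and Serpinb6e at most 1.34 FPKM, both in EXO libraries.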

How the data were processed

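Polyadenylated RNA of mouse skin was made into strand-specific libraries and sequenced. The FPKM values were computed and deposited by the authors in 1 table of 55382 genes and 9 libraries. The submitters' processing notes name cutadapt, HISAT2 2.0.4, StringTie 1.3.4d and mm9, while the annotation release is not given in the sources used here. Since FPKM divides by the library total, a larger share of one transcript class lowers all others. Of the gene identifiers 99.56% were in GENCODE M21, and coordinates are in GRCm38. No counts were used, and depth was estimated from the most frequent product of low FPKM (0.05 or more) and length over genes with 1 transcript of 300 to 1500 bases.

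Groups came from the sample labels. Genes at 1 FPKM or more in 3 libraries (14254) were fitted as log2(FPKM + 1) in 1 model of all 9 libraries with limma 3.58.1 (R 4.3.3) and a mean-variance trend, adjusted by Benjamini-Hochberg, and called at 0.05. Ratios were compared with exact permutation tests that treated the libraries as unpaired and made no use of their numbers. Python 3.11.15, pandas 2.3.3 and scipy 1.17.1 were used. In deviations from the group means, same-numbered libraries correlated at 0.173 to 0.679 (median 0.454, 9 pairs) and others at -0.547 to 0.203 (18 pairs), so the ranges overlapped. Deviations within a group cancel, so positive values in some pairs bring negative ones in others. The block took the title numbers as pairs because of these same data. No label states such a pairing, and results with the block depend on it.

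Named members were the 4 largest rises and falls per comparison at a mean of 2 FPKM or more, the 2 most abundant of each family, those past the adjusted threshold, those past the study's limits without overlap, those at the edge of the filter and well-known skin members. Members, lists and rules were chosen with earlier results of these data known. Other scalings, filters, pseudocounts, variance settings, the block and leaving out libraries were tried as alternatives, and those based on basal markers, and on leaving out the libraries numbered 2 together with the block, were added after seeing the data.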

Additional observations from a re-analysis of the deposited data

How the results depend on the processing

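The members with the largest changes and those past a threshold gave 30 results, of which 29 kept their direction under every alternative. Over all 26 members the direction turned under at least 1 alternative for 13 in EXO against BLM, 9 in BLM against NORMAL and 12 in EXO against NORMAL. Among them, Serpinb6a in EXO against BLM was 1.14 and ran down to -0.35. The exception among the 30 was Klk7 in EXO against NORMAL, which was -0.33 and turned to 0.93 without NORMAL3 (-1.11 to 0.93 leaving out 1 library). With the replicate block, 1 member passed in BLM against NORMAL and 2 in EXO against BLM, and the block changed no other call. Quantile normalization and median-ratio scaling each gave 1 member in BLM against NORMAL and 1 in EXO against BLM, Klk13 each time. Of all genes 0.407% and 0.253% passed in these comparisons with quantile normalization, and 0.421% and 0.196% with median-ratio scaling. Klk13 was also among the members that passed with the block, and it had passed the filter through the BLM group alone. Rescaling to basal epidermis markers gave 2 members in BLM against NORMAL and 4 in EXO against BLM (1.48% and 3.97% of all genes). A model of only the 6 libraries compared gave 2 in EXO against BLM, Klk13 and Wfdc3 (0.505% of all genes). Leaving out 1 library gave 0 to 2 members in BLM against NORMAL, with 2 (Klk10 and Klk13) without NORMAL3 (0.945% of all genes).

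In BLM against NORMAL 3 members passed the study's thresholds (5.9% of all genes). The number was 5 after rescaling to the same total (5.94% of all genes), with the block (8.43%) and after rescaling to basal markers (7.2%). It was also 5 without the libraries numbered 2 with the block (8.07%). Leaving out 1 library gave 1 to 9, with 1 without BLM3 (4.57% of all genes) and 9 without NORMAL3 (14.8%). In EXO against NORMAL the number was 6 (1.71% of all genes), and 0 after rescaling to basal markers (3.49%). Leaving out 1 library gave 3 to 8 there (1.18% to 9.91% of all genes), with 3 without EXO3 (1.45%). In EXO against BLM the number was 10 (5.3% of all genes), of which 7 were higher. After rescaling to basal markers it was 8, 0 of them higher (23% of all genes lower, 0.0421% higher). Leaving out 1 library gave 7 to 11 there (4.15% to 6.94% of all genes), with 0 of 7 lower without BLM3 (1.19% of all genes lower). The difference of the log2 kallikrein to inhibitor ratio was -2.24 in EXO against BLM (-1.68 to -3.03 leaving out 1 library), 1.63 in BLM against NORMAL (0.97 to 2.72) and -0.61 in EXO against NORMAL (-1.27 to 0.48, above 0 without NORMAL3). Depth limits the members below 1 FPKM, and the causes of these shifts were not tested.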

Other observations

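Some family genes outside the filter were seen in few libraries. Spink12, a Kazal inhibitor, had 2.31 FPKM in NORMAL3, 0.09 FPKM in EXO3 and 0 in the other 7 libraries. Spink4 had 0.27, 0.81 and 0.56 FPKM in EXO1 to EXO3 and was listed at 0 in the 3 BLM libraries, with 0.30, 0 and 0.39 FPKM in NORMAL1 to NORMAL3. Serpinb13, an inhibitor of cathepsins, had 0, 0 and 0.17 FPKM in EXO, 0.76, 0 and 0.66 FPKM in BLM and 0, 0 and 0.31 FPKM in NORMAL. These genes were named after their values were seen. The 24 genes named Klk1 or Klk1b, the tissue kallikreins expanded in the mouse, reached at most 0.62 FPKM in any library.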
